A study of Solanum lycopersicum with 10 samples.

Results

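The 152 loci described here were raised strongly by auxin in tomato (Solanum lycopersicum) leaf primordia and changed little in root tips, of 35767 loci listed. A locus was a member where its leaf change, the mean log2(value + 1) under picloram minus that under mock, was at least 1.5. Every picloram leaf library also had to lie above every mock leaf library, the picloram mean had to reach 20 normalized counts, and the change in root tips had to lie between -0.7 and 0.7. The members were thus selected on measured values of both tissues, and their leaf and root changes are a description. Where counts of members called in a fit across all loci are given, they stand beside the share of all loci called and support nothing.

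All plants were of line M82, and transcripts were counted from their 3' ends in 10 libraries of 4 groups. Leaf primordia came from greenhouse plants aged 3 weeks, sprayed with 1 µM picloram (n = 3) or with mock (n = 3). After 3 h, 15 primordia of leaf 5, at stage P5, were dissected out. Root tips were the terminal 1 cm of plate-grown seedlings kept at 22 °C in continuous light, which 4 days after germination were moved to 1 µM 2,4-D (n = 2) or mock (n = 2) for 3 h. Picloram and 2,4-D are synthetic auxins that plants break down slowly. Tissue, compound, plant age, growth conditions and mode of application all changed together between the experiments, so that a tissue difference and a compound difference cannot be told apart. The labels do not say whether replicates came from separate plants or days, so errors may be partly technical.

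Auxin acts by joining a receptor F-box protein to an Aux/IAA repressor, which is then destroyed, so that auxin response factors can activate their targets. Early targets in many plants include the Aux/IAA genes themselves and genes for enzymes that conjugate auxin. Which further genes respond depends on the tissue, and in leaves they can include genes for the metabolism of other hormones.

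Per leaf library the normalized counts summed to between 1.83 and 2.06 M (M, mega), and per root library to between 2.83 and 2.96 M. The tissues matched their labels on 18 listed loci for light-harvesting proteins and the small subunit of Rubisco, which summed to 10629 to 20096 normalized counts in leaf libraries and 25.5 to 145 in root libraries. This sum was lower in every picloram leaf library (10629 to 13531) than in every mock leaf library (18489 to 20096), and its part in the results below was not tested. In bulk tissue, fewer cells of a type and less RNA per cell cannot be told apart.

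Of the 11029 loci with a picloram mean of at least 20, 1710 had all picloram libraries above all mock libraries, and 242 of these had a leaf change of at least 1.5. The root change of 72 of the 242 exceeded 0.7 and that of 18 was below -0.7, which left the 152 members. Their leaf changes ran from 1.52 to 5.37 with a median of 1.94, and the ratio of the picloram mean to the mock mean had a median of 3.78. In 17 members the leaf change was 3 or more, in 52 it was 2 to 3 and in 83 it was under 2. Root changes ran from -0.69 to 0.69 with a median of 0.08, above 0 in 87 members, below 0 in 45 and exactly 0 in 20.

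**Figure D1:**
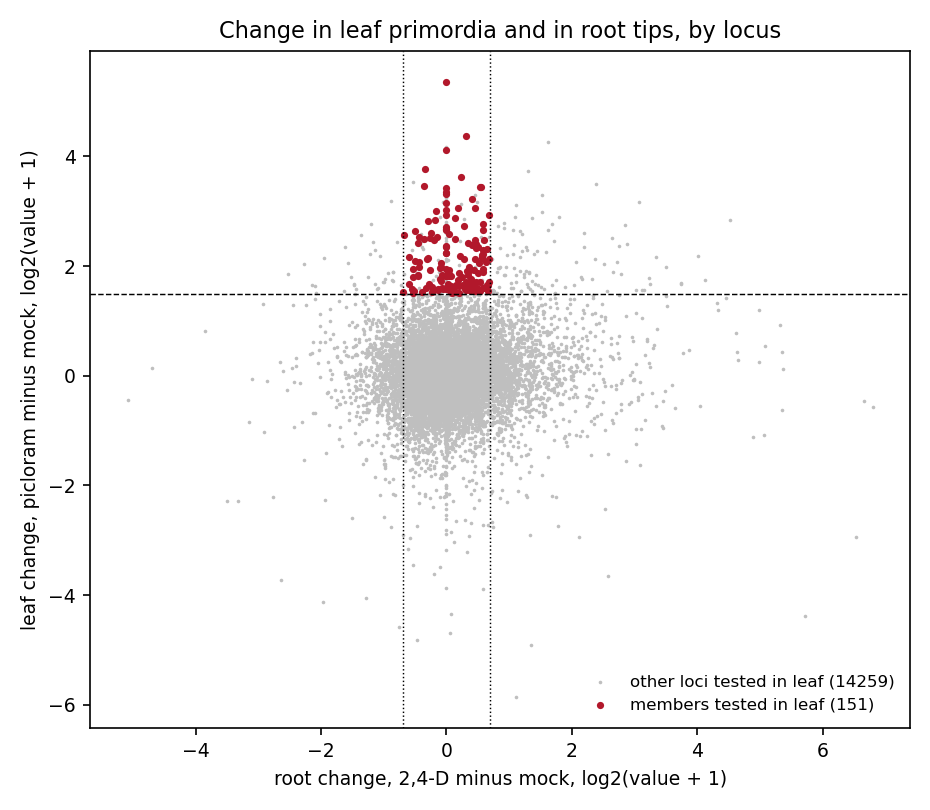
Change in root tips (x, 2,4-D minus mock) and in leaf primordia (y, picloram minus mock) on the log2(value + 1) scale, with 1 point per locus tested in leaf. The dashed and dotted lines mark the limits of 1.5, -0.7 and 0.7, and the 151 members tested in leaf (red) lie between the dotted lines from 1.52 up to 5.37, where grey points are loci that missed the rule on overlap or level.

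In a fit across all tested loci (limma, Benjamini-Hochberg adjusted p under 0.05), 133 of 151 tested members were called higher in picloram leaf, beside 4.89% of all 14410 loci. The rule used this contrast, and nothing is read from the count. The remaining member, Solyc01g109170, did not reach the minimum for the test, which was 10 normalized counts in 2 libraries of the tissue. Its picloram values were 8.68, 54.2 and 2.06 normalized counts, against 1.12, 0 and 0.836 in mock leaf, so that 1 library carried its mean.

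The table gives no gene names, and none of the 41476 rows of the RefSeq gene table of the assembly SLM_r2.1 names a Solyc identifier. Roles are therefore given only through 15 lists with 198 identifiers recalled from the literature on each tomato family, which these files do not check. On these lists stood 4 members, 1 each for gibberellin oxidases, Aux/IAA repressors, jasmonate synthesis with its JAZ repressors, and the circadian clock. The other 148 members carry an identifier only.

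Solyc07g061730 stood on the gibberellin oxidase list, whose enzymes make active gibberellins or, as 2-oxidases do, inactivate them. It had 63.1, 52.8 and 65.3 normalized counts in picloram leaf, against 3.41, 1.19 and 1.68 in mock leaf. In root it stood at 0.865 and 1.22 on 2,4-D and at 1.69 and 0 in mock. The picloram libraries thus lay far above all other libraries, and the leaf change of 4.37 ± 0.43 (SE) was the second highest of all members.

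The locus next to it in identifier order, Solyc07g061720, is on the same list and is no member. It had 55.3, 65.4 and 60.2 normalized counts in picloram leaf, against 11.1, 9.68 and 3.32 in mock leaf, a rise of 2.89 ± 0.45 on the log2 scale (SE, limma adjusted p = 0.00202). Its root values were 1.75 and 2.46 on 2,4-D against 0 and 1.09 in mock, and the resulting change of 1.09, made of values near the lowest recorded, put it outside the rule. The RefSeq table places 3 gibberellin 2-oxidase symbols on chromosome 7, the chromosome in both identifiers, without pairing them with either. Another locus of the list behaved otherwise: Solyc01g079200 had 7.02, 4.25 and 5.15 normalized counts in picloram leaf against 4.62, 2.44 and 8.30 in mock leaf. In root the same locus had 30.6 and 24.6 normalized counts on 2,4-D against 0 and 1.09 in mock. Of the 12 listed loci, 3 were tested in leaf, where 2 (the member included) rose and 0 fell, beside 4.89% and 5.26% of all tested loci, and 1, Solyc01g079200, was tested in root, where it rose by 4.30 ± 0.54 (SE, limma adjusted p = 0.000838). The third locus tested in leaf, Solyc03g006880, had a change of -1.20 and was not called. The 2 that rose reached the minimum for testing only with their picloram libraries, which tilts this count upward.

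Solyc07g008020 stood on the Aux/IAA list of auxin-induced repressors. It had 83.5, 89.4 and 73.5 normalized counts in picloram leaf against 13.4, 24.6 and 20.6 in mock leaf, a leaf change of 2.05 ± 0.37 (SE). Its root values were 7.03 and 6.10 on 2,4-D and 7.61 and 2.21 in mock, which overlapped and stayed under 10. RefSeq has 0 symbols of the family on chromosome 7. Of 18 list loci tested in leaf 11, the member included, rose and 0 fell, with a median log2 change of 0.80 beside 0.00 over all tested loci, and of 15 tested in root 6 rose and 0 fell, beside 3.48% of all loci called higher and 1.07% called lower in root. The leaf count includes loci such as Solyc06g084070, with a mock leaf mean of 3.91, that reached the minimum for testing only under picloram. Solyc12g007230 had a like split at a smaller size. It rose in leaf, with 118 ± 11.2 normalized counts under picloram against 65.8 ± 5.6 in mock (SD, n = 3 each, limma adjusted p = 0.00849), and its root change was -0.10. Its difference of responses did not pass (-0.93 ± 0.26, SE, limma adjusted p = 0.0821). Solyc04g076850 went the other way, by 0.16 ± 0.12 in leaf and 0.96 ± 0.15 in root (SE, limma adjusted p = 0.449 and 0.0027). The difference of responses of Solyc04g076850 was called, higher in root (0.80 ± 0.19, SE, limma adjusted p = 0.0387). Solyc03g121060 was likewise called higher in root (1.37) and not called in leaf (0.41).

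Solyc02g085730 stood on the list of jasmonate synthesis enzymes and JAZ proteins, which are repressors that jasmonate removes and whose genes it induces. Solyc02g085730 was abundant, with 1614, 2021 and 1271 normalized counts in picloram leaf against 615, 612 and 433 in mock leaf. Root values were 366 and 328 on 2,4-D and 399 and 362 in mock, so that root libraries overlapped and all lay below the mock leaf libraries. RefSeq places the symbol AOC, allene oxide cyclase of jasmonate synthesis, on chromosome 2, the chromosome in the identifier.

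Other loci of the jasmonate list were high under picloram too. Of 11 tested in leaf 7, the member included, rose and 0 fell, beside 4.89% and 5.26% of all tested loci, with a median log2 change of 1.61. The count rested on single libraries, being 3 without picloram library 2 and 4 without mock leaf library 1. It is also tilted upward by the minimum for testing, which Solyc12g009220 and Solyc08g036660 reached only in picloram libraries. Low loci of the list such as Solyc04g079730 (leaf change -1.30) and Solyc08g036640 (2.01) were not tested. Solyc03g122190 had 227, 270 and 258 normalized counts in picloram leaf against 67.1, 61.2 and 76.6 in mock leaf, a rise of 1.87 ± 0.33 (SE, limma adjusted p = 0.00435). In root it had 3.54 and 3.72 on 2,4-D against 4.14 and 14.3 in mock, a root change of -0.94 that kept it out of the rule. Solyc07g042170 rose in both tissues, by 1.71 ± 0.20 in leaf and by 1.10 in root (SE of the leaf change, limma adjusted p = 0.000336 and 0.0229). Solyc07g007870 rose by 0.66 ± 0.16 in leaf (SE, limma adjusted p = 0.0259). Solyc08g076930 (0.49 ± 0.23, SE, limma adjusted p = 0.218) and Solyc03g122340 (0.51 ± 0.36, SE, limma adjusted p = 0.432) were not called. In root 6 list loci were tested, of which 1 rose and 0 fell, beside 3.48% and 1.07% of all tested loci.

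Solyc10g005080 stood on the circadian clock list, which holds transcription factors and partners that peak at different times of day. It had 766, 702 and 599 normalized counts in picloram leaf against 84.1, 89.6 and 71.8 in mock leaf, a leaf change of 3.06 ± 0.15 (SE). In root it had 35.4 and 36.9 on 2,4-D against 25 and 27.6 in mock, a change of 0.45 in libraries that did not overlap either, inside the window of 0.7. Loci of the clock list moved in leaf in both directions. Of 9 tested, 2 (the member included) rose and 3 fell, beside 4.89% and 5.26% of all tested loci, and these counts were the same in each of 18 alternative settings. Solyc01g068560 rose by 1.26 ± 0.20 (SE, limma adjusted p = 0.00247), with 155, 173 and 144 normalized counts in picloram leaf against 50.7, 73.2 and 72.8 in mock leaf. Solyc03g081240 fell by 2.72 ± 0.37 (SE, limma adjusted p = 0.000978), to 11.1, 15.9 and 12.5 in picloram leaf against 126, 100 and 60.4 in mock leaf. Solyc04g071990 fell by 2.16 ± 0.36 (SE, limma adjusted p = 0.00296). Solyc12g056650 fell by 1.77 ± 0.16 in leaf and rose by 0.87 ± 0.19 in root (SE, limma adjusted p = 6.84e-05 and 0.0231). In root 7 list loci were tested, of which 1 rose and 0 fell, beside 3.48% and 1.07% of all tested loci. The labels give no hour of harvest, and the part of the time of day in the members' leaf change was not tested.

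**Figure D2:**
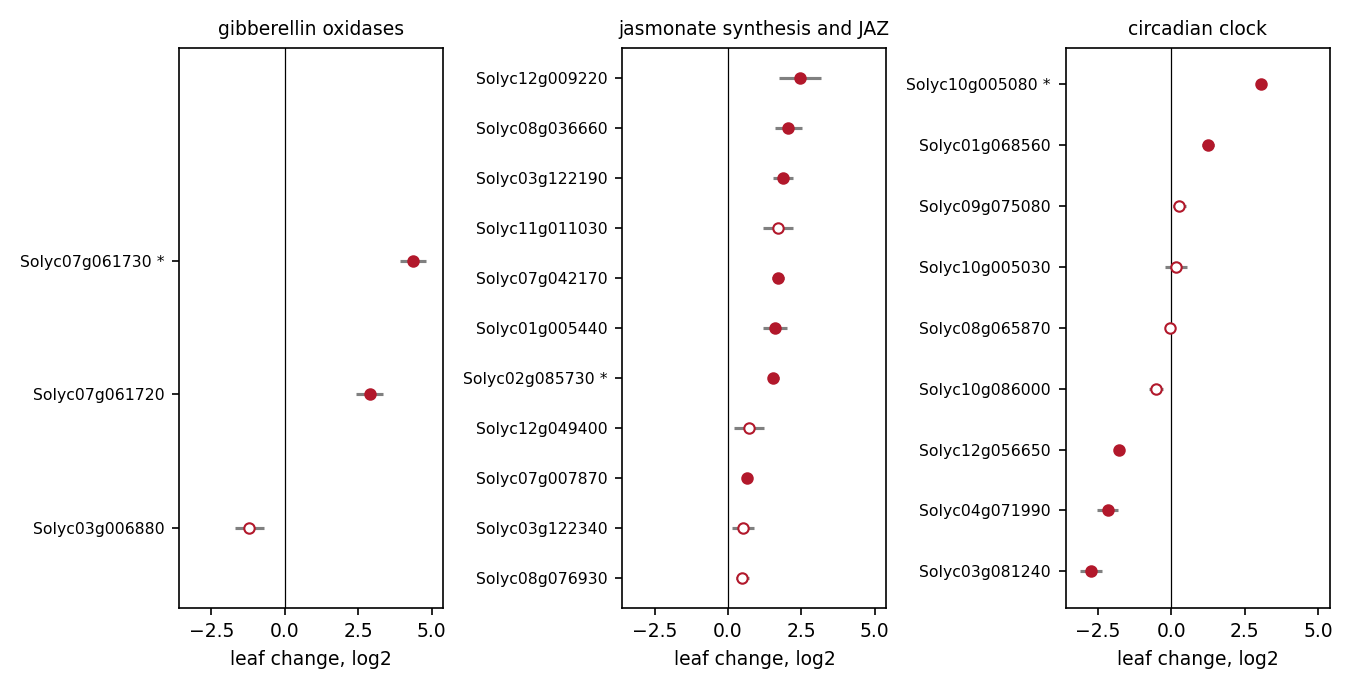
Leaf change (picloram minus mock, log2(value + 1), with SE bars) of the loci tested in leaf on the gibberellin oxidase, jasmonate and clock lists. Filled points were called by limma, stars mark members, and the clock loci run from -2.72 to 3.06 while all 11 tested jasmonate loci lie above 0. The minimum for testing counted picloram libraries, so low loci enter mostly where they rose.

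The other lists held 0 members, and their counts stand beside 4.89% of all loci called higher and 5.26% called lower in leaf. In leaf, 2 of 6 tested GH3 loci, which conjugate auxin to amino acids, rose. So did 2 of 14 auxin response factors, 3 of 12 auxin carriers (1 fell), 0 of 3 auxin receptors, 1 of 4 auxin synthesis loci (1 fell), 1 of 5 ethylene synthesis loci, 0 of 2 abscisic acid loci, 1 of 11 flavonoid loci and 1 of 12 leaf patterning regulators. Of 7 cytokinin oxidase and response regulator loci 0 rose and 1 fell. Of 17 light-harvesting and Rubisco loci 0 rose and 4 fell, a count that ranged from 0 to 6 when single leaf or root libraries were left out, with 0 without picloram library 1 or mock leaf library 2. Under other settings it ranged from 3 to 12, with 8 at a pseudocount of 5 and 12 with each tissue fitted alone.

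The member with the highest leaf change was Solyc05g015800. It had 57.6, 92.6 and 74.0 normalized counts in picloram leaf against 2.18, 0 and 0.844 in mock leaf, and was listed at 0 in all 4 root libraries. Its leaf change was 5.37 ± 0.44 (SE), from a mock level of about 1 normalized count. The SE is from the fit over both tissues, where root libraries all at 0 add no spread. It can therefore understate the spread between leaf libraries, here and in the other members listed at 0 in all root libraries.

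Solyc02g067050 was likewise listed at 0 in all root libraries, and had 188, 327 and 276 normalized counts in picloram leaf against 15.1, 25.1 and 6.76 in mock leaf. Solyc02g067230, also on chromosome 2, had 89.9, 60.9 and 87.5 in picloram leaf against 2.30, 4.83 and 9.18 in mock leaf, with 3.69 to 13.9 in root. Solyc03g098320 had 297, 167 and 257 in picloram leaf against 24.4, 16.7 and 20.9 in mock leaf. All 4 root libraries of Solyc03g098320, from 13.4 to 24.7 normalized counts, lay near its mock leaf level.

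Solyc01g095140 had 36.7, 25.2 and 17.5 normalized counts in picloram leaf against 2.33, 0 and 3.28 in mock leaf. Its root values were 21.8 and 17.5 on 2,4-D against 11.8 and 14.2 in mock, so that 2,4-D root overlapped with picloram leaf and mock root lay below it. Solyc06g050720 had 15.6, 16.1 and 29.7 in picloram leaf against 0, 0 and 5.84 in mock leaf, with 0.834 to 2.63 in root.

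Solyc03g114500 differed from the other 7 of the 8 highest. It had 184, 161 and 163 normalized counts in picloram leaf against 0, 157 and 15.8 in mock leaf. The mock libraries spanned 7.30 on the log2 scale, the widest range of any member, and mock library 2 nearly reached the picloram level. Its leaf change of 3.62 ± 1.25 (SE) was not called, and without mock leaf library 2 the change was 5.38 and was called. Root values were 757 and 695 on 2,4-D and 638 and 598 in mock, all above every leaf library.

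**Figure D3:**
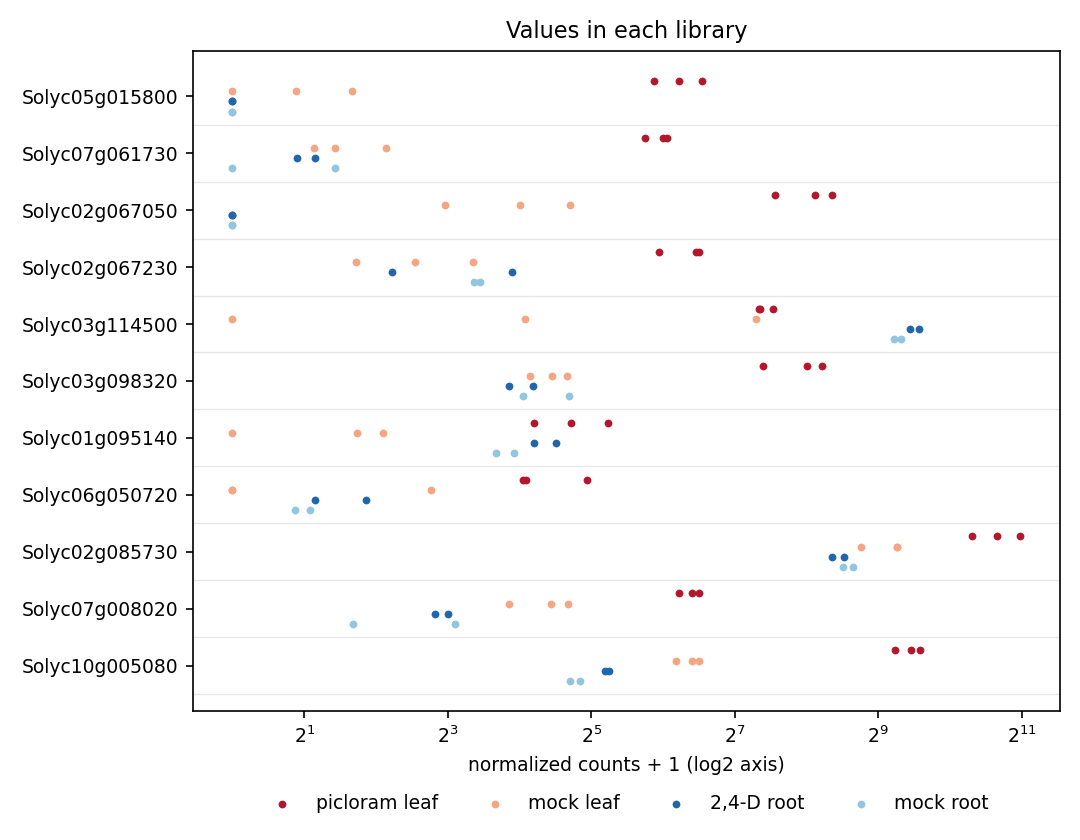
Normalized counts plus 1 (log2 axis) in each library for the 8 members with the highest leaf change and the members on a list. Points are single libraries, and within a locus the picloram leaf libraries lie right of the mock leaf libraries, most narrowly in Solyc03g114500, with 161 against 157.

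Levels under picloram ran from 20.1 to 1950 normalized counts, with a median of 69.3 beside 15.6 in mock leaf. Solyc03g117590 was the most abundant, with 1599, 2383 and 1868 normalized counts in picloram leaf against 215, 271 and 235 in mock leaf, a leaf change of 3.00 ± 0.16 (SE). Its root values were 149 and 114 on 2,4-D and 151 and 142 in mock. Solyc10g075160 had 1155, 1573 and 1221 normalized counts in picloram leaf against 327, 519 and 502 in mock leaf. Root libraries held at most 6.10 normalized counts of Solyc10g075160. Its leaf change was 1.56 ± 0.63 (SE) and was not called in the fit over both tissues. It was called with leaf fitted alone, where the near-zero root libraries no longer enter the error. Solyc03g117870 had 981, 1154 and 1037 normalized counts in picloram leaf against 332, 270 and 210 in mock leaf, with 407 and 374 on 2,4-D and 279 and 331 in mock root.

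The rule set no limit on the root level, but its window on the root change passes any locus at or near 0 in root, so that the low levels below are partly fixed by the rule. In 20 members all 4 root libraries were listed at 0, and in 60 more every root library held under 10 normalized counts. These 80 members made up 52.6% of the 152, and 11% of the 11029 loci with a picloram mean of at least 20 had root values as low. For such loci the root change is made of values near the lowest recorded. The remaining 72 members reached 10 in at least 1 root library, and 54 did so in all 4. In these 54, root changes ran from -0.69 to 0.68 with a median of 0.08, beside a median leaf change of 1.86. The median leaf change of the 80 low members was 1.96.

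In the test of 2,4-D against mock, 65 members could be tested, and 0 were called in either direction, beside 3.48% of 12664 loci called higher and 1.07% called lower, and the window of the rule favours such a count. An unadjusted p under 0.05 in limma was reached by 2 upward and 5 downward. The same share over all loci was not computed, so nothing is read from these counts. In the test of the root response minus the leaf response, 32 of the 65 were called lower in root, beside 1.56% of 11313 loci, and 0 were called higher, beside 2.2%. Both contrasts had entered the rule. The 32 became 19 without 2,4-D library 1, 2,4-D library 2 or mock root library 1, and 21 without mock root library 2.

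By level, 15 members stood higher in root than in picloram leaf by their means, and in 10 of them every root library lay above every picloram leaf library. The 10 were 6.58% of members, against 34.4% of the 11029 loci with a picloram mean of at least 20. Levels across tissues rest on the deposited scaling, with totals of 1.83 to 2.06 M in leaf and 2.83 to 2.96 M in root libraries. These counts of levels were not tested under other scalings. Solyc01g067740 was the extreme, at 5408 and 4699 normalized counts on 2,4-D and 4729 and 4482 in mock root. In leaf it had 685, 1008 and 946 under picloram and 151, 201 and 116 in mock, so that the picloram libraries were still far below the root. Solyc02g086460 had 816 and 1188 normalized counts on 2,4-D and 757 and 759 in mock root. Its leaf values were 299, 306 and 224 under picloram and 66.0, 118 and 46.6 in mock. Solyc09g082690 had 734 and 604 on 2,4-D and 547 and 767 in mock root. In leaf the same locus had 515, 550 and 591 under picloram and 164, 145 and 157 in mock, and here root and picloram leaf libraries overlapped.

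In another 31 members the root mean lay between the mock leaf mean and the picloram leaf mean, and in 106 it lay below the mock leaf mean. The corresponding shares were 20.4% and 69.7% of members, against 5.69% and 49.5% of the 11029 loci, and 9.87% against 48.9% for a root mean above picloram leaf. By the rule the leaf means of a member lie far apart, which widens the interval between them. In the fit, mock root against mock leaf called 75 of 151 tested members lower in root, beside 29.8% of 15761 loci, and 26 higher, beside 32.7%. Mock leaf values had entered the rule, where a low value favours membership, so that these counts are a description.

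**Figure D4:**
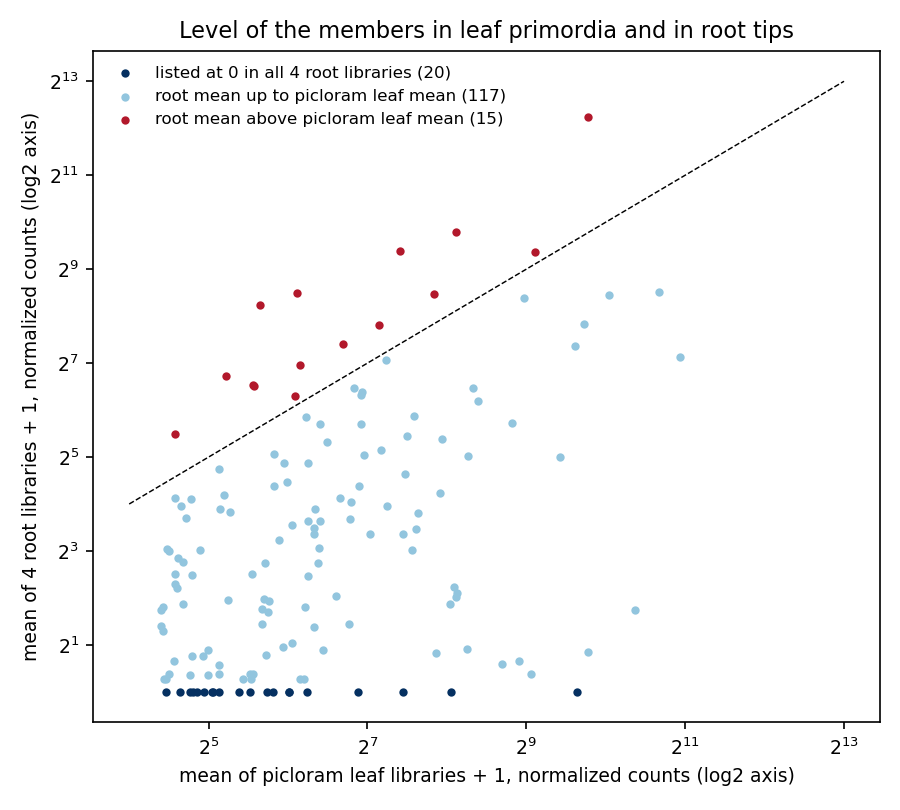
Mean of the 3 picloram leaf libraries (x) and of the 4 root libraries (y) for each member, in normalized counts plus 1 on log2 axes, with equality dashed. The 15 red members lie above the dashed line, with Solyc01g067740 highest at 4830 in root, and the 20 dark points are listed at 0 in root.

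Position was read from the identifiers, which carry the chromosome number and run in map order. Members fell on all 12 chromosomes, from 5 on chromosome 11 to 22 on chromosome 2. Chromosomes 2 and 3 held 14.5% and 13.8% of members, against 10.1% and 10.3% of the 11029 loci, and chromosome 11 held 3.29% against 6.76%. Within 5 places of another member in identifier order lay 21 members. Counted from each member, 30 of the 1520 places within that reach were taken by another member, which is 1.97%, against 0.425% of all loci listed. Neighbours can be near-identical copies between which reads are divided, and no member had the same values as another locus.

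The longest run of neighbours was on chromosome 9. Solyc09g089530 had 643, 1122 and 870 normalized counts in picloram leaf against 251, 274 and 322 in mock leaf. Solyc09g089520 and Solyc09g089500 were far lower, at 23.7, 29.6 and 18.3 in picloram leaf against 5.55, 1.23 and 2.49 in mock leaf for the first, and 33.0, 22.1 and 33.9 against 6.91, 0 and 2.53 for the second. Solyc09g084490, which precedes them in identifier order with a gap in the numbering, had 345, 569 and 527 in picloram leaf against 153, 115 and 104 in mock leaf. None of these 4 loci exceeded 1.22 normalized counts in any root library. Non-members stood between them. Solyc09g089510 had 76.9, 45.2 and 182 normalized counts in picloram leaf against 62.2, 0 and 9.26 in mock leaf, which overlapped. Solyc09g089505 had 63.6, 95.7 and 2.06 in picloram leaf against 5.76, 31.5 and 15.2 in mock leaf. Solyc09g089490 was listed at 0 in all leaf libraries.

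A second run lay on chromosome 12. Solyc12g010020 had 359, 487 and 397 normalized counts in picloram leaf against 230, 95.6 and 128 in mock leaf. Solyc12g010025 followed the same order of mock libraries, with 28.4, 34.1 and 34.1 in picloram leaf against 20.3, 3.67 and 7.33 in mock leaf. Solyc12g010030 did not, at 40, 49.4 and 45.3 against 6.91, 9.70 and 21.1. All 3 stood at 1.25 or less in every root library. The leaf call of Solyc12g010025 was lost in 10 of 18 alternative settings, that of Solyc12g010020 in 7 and that of Solyc12g010030 in 4, and all 3 were lost on leaving out picloram library 2, picloram library 3 or mock leaf library 2.

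Solyc02g078150 and Solyc02g078160, side by side on chromosome 2, had leaf changes of 2.53 ± 0.36 and 2.47 ± 0.27 (SE). Against mock leaf means of 35.5 and 12.9 normalized counts, their means over the 4 root libraries were 10 and 28.4. Solyc02g083850 and Solyc02g083880 had leaf changes of 2.17 ± 0.75 and 2.16 ± 0.19 (SE) and root means of 3.66 and 168. The first of the 2 was not called in leaf, its mock libraries standing at 14.3, 2.37 and 1.68. Solyc01g096630 and Solyc01g096670 had root means of 3.14 and 82.8, and Solyc10g005300 and Solyc10g005320 of 7.14 and 0. Solyc10g008350 and Solyc10g008400 had 25.9 and 16.4, and Solyc12g094520 and Solyc12g094580 had 32.5 and 34.4. In the pair Solyc02g086300 and Solyc02g086350 the second had 31.0, 33.1 and 27.9 normalized counts in picloram leaf against 21.6, 0 and 23.1 in mock leaf, and was not called.

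Agreement between leaf libraries varied among the members. Across members the range of the 3 picloram libraries had a median of 0.56 and that of the 3 mock libraries a median of 0.89 on the log2 scale, beside 0.45 and 0.54 over all loci tested in leaf. In 22 members, or 14.5%, the mock libraries spanned more than 2, beside 2.58% of tested loci. The rule favours low mock leaf values, and the mock leaf mean was under 10 in 49 members (32.2%), against 1.18% of the 11029 loci. Counting error weighs on such values, and its part in these ranges was not tested. The gap from the highest mock to the lowest picloram library was 1 or more on the log2 scale in 96 members and under 0.5 in 17. The rule required a gap above 0, and over all loci tested in leaf the median gap was -0.52. These 2 counts were not made over all loci, so nothing is read from them. The gap was narrowest, 0.00 when rounded, in Solyc10g009290, with 26.2, 46.7 and 29.0 normalized counts in picloram leaf against 5.41, 7.18 and 26.1 in mock leaf.

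Picloram library 2 was the highest of its group in 84 members (55.3%), library 1 in 39 and library 3 in 29. Over all loci tested in leaf, library 2 was the highest in 35.6%. The members summed to 23481, 29369 and 24489 normalized counts in picloram libraries 1, 2 and 3, against 6154 to 6900 in the mock leaf libraries. The median difference of members from the mock mean was 1.95, 2.09 and 1.93 in the 3 picloram libraries. The rule required every picloram library to lie above every mock leaf library, so nothing is read from this likeness. Without picloram library 2 the rule chose 144 loci, 122 of them among the 152.

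**Figure D5:**
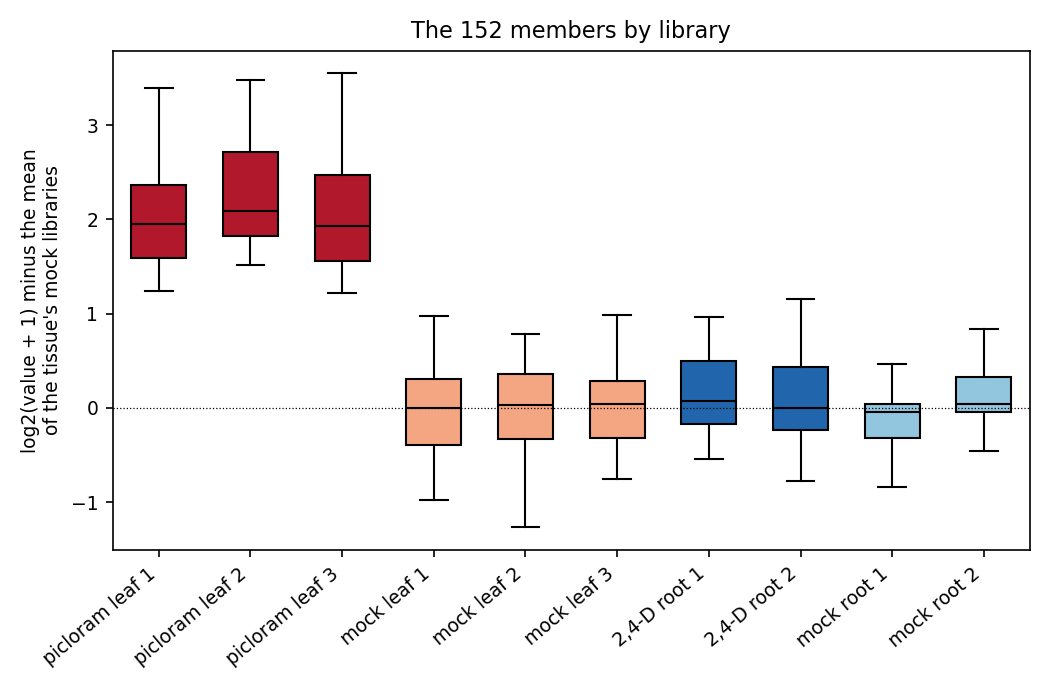
Difference of the 152 members from the mean of the mock libraries of the same tissue, in log2(value + 1), by library. Boxes give the quartiles and median and whiskers the 5th to 95th percentile, and the 3 picloram leaf medians (1.93 to 2.09) stand apart from the other 7 medians (-0.04 to 0.07). This separation follows from the rule, which used both tissues.

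Leaf values of libraries left out of the choice did not enter it directly, although the rule was set with earlier results of these data known. The whole rule, its root window included, was applied without the picloram and mock leaf libraries numbered 1, with all 4 root libraries kept. In this way 180 loci were chosen. In the 2 libraries left out, their median change was 1.69, with 96.1% above 0 and 55% at 1.5 or more, beside 48.9% and 4.27% of the 14410 loci tested in leaf. Without the libraries numbered 2, 160 loci were chosen, with a median of 1.71 and shares of 91.9% and 58.8%, beside 49.6% and 4.13%. Without those numbered 3, 190 were chosen, with a median of 1.53 and shares of 95.8% and 51.1%, beside 49.3% and 3.41%. Of the loci so chosen, 131, 116 and 134 were among the 152. The median change in the left-out libraries was at or above 1.5 in each of the 3 cases, and between 91.9% and 96.1% of chosen loci were higher under picloram there. Loci read in the same 2 libraries are not replicates, and libraries of 1 number were not taken as pairs elsewhere. These shares are therefore a description.

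Pairs of loci stood just inside and just outside each limit. Solyc02g067120 entered with a leaf change of 1.516 and Solyc02g090450 with 1.517, while Solyc08g061610 at 1.499 and Solyc04g005380 at 1.494 did not. Solyc08g061610 had 114, 113 and 141 normalized counts in picloram leaf against 40.9, 42.6 and 43.8 in mock leaf, a tighter separation than that of Solyc02g067120, with 20, 32.7 and 26.0 against 6.58, 4.82 and 17.5. At the upper root limit Solyc04g008230 entered with a root change of 0.686 and Solyc06g068650 with 0.684, and Solyc07g064620 at 0.705 and Solyc12g087960 at 0.738 did not. At the lower one Solyc10g008350 entered with -0.686 and Solyc04g054340 with -0.673, and Solyc08g083115 at -0.720 and Solyc10g086180 at -0.847 did not. The last had 978, 956 and 1007 normalized counts in picloram leaf against 330, 256 and 301 in mock leaf. In root Solyc10g086180 had 276 and 267 on 2,4-D against 480 and 497 in mock, a fall that was called (limma adjusted p = 0.00346). At the limit on the picloram mean, Solyc01g081480 had 19.7, 16.3 and 24.1 and Solyc05g052950 had 32.9, 15.9 and 11.5 normalized counts and entered. Solyc01g110340, at 17.7, 25.1 and 16.4, and Solyc05g039950, at 15.8, 34.8 and 8.28, did not.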

How the data were processed

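One table of 35767 loci by 10 libraries was used. Its unit is a signal that is never below 0: the authors' normalized gene counts, with libraries already scaled to one another when deposited. The submitters' processing notes list Salmon 0.8.2 and DESeq2 but not what each did. Genome build and annotation: not given in the sources used here. Small entries lay near multiples of a step of 0.785 to 1.22 normalized counts, but only 57.6% to 82.6% of those worth up to 20 reads fell within 0.1 of a whole read, so no count test was run. Division of totals by the step gives about 1.69 to 2.39 M reads per leaf library and 2.32 to 3.47 M per root library, and counting error weighs on values near 10.

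The rule was applied to the deposited values. Tests used limma 3.58.1 in R 4.3.3, with its trend option, on log2(value + 1), which understates the change of low loci, with 1 mean per group over all 10 libraries, 6 residual and 5.55 prior degrees of freedom, 2-sided. A locus was tested if 2 or more libraries of the tissue held 10 or more (both tissues for the difference of responses, either for the tissue comparison). The minimum counts treated libraries too, so low loci enter mostly where they rose. The members and the gene lists were chosen with earlier results of these data known. Named were the 8 members of highest leaf change, the 5 of highest picloram mean, the 4 of highest root mean, those on a list, those within 5 places of another, and 2 loci on each side of each limit. Solyc01g109170, Solyc10g009290, the non-members within the run on chromosome 9 and the list loci that are no members were named after their values were seen. The fit was tested on simulated data. No sequence was used.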

Additional observations from a re-analysis of the deposited data

Results flagged for a closer look

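In the test of root response to 2,4-D minus leaf response to picloram, 32 of 65 tested members were called, all lower in root, beside 1.56% of 11313 loci. The count was 19 without 2,4-D library 1, 2,4-D library 2 or mock root library 1. The rule had chosen loci for this difference, so the count describes the choice, and tissue and compound cannot be told apart. No group had the 4 libraries that a search for outlying samples needs.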

How the results depend on the processing

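The rule chose 125 to 190 loci when single libraries, or both leaf libraries of 1 number, were left out. It chose 325 with a leaf change of at least 1, 69 with at least 2, 314 with no minimum on the picloram mean and 96 with a minimum of 50. With every library scaled to the same total, which raised the median leaf change of all loci to 0.09, it chose 208. The members called higher in leaf numbered 99 to 130 with single libraries left out and 118 to 149 otherwise. The median leaf change of 1.93 became 1.64 with a pseudocount of 5, 2.03 with equal totals and 2.06 after quantile normalization, and was 1.90 to 2.01 with libraries left out. In root, 0 members were called, 3 with each tissue fitted alone and 0 or 1 with libraries left out. The median root change of 0.13 became 0.19 without the minimum for testing and 0.03 on quantile-normalized values, and was 0.02 to 0.23 with libraries left out. Members called lower in root for the difference of responses numbered 32, and 19 to 34 with libraries left out. Calls of mock root against mock leaf were 66 to 77 lower and 23 to 26 higher with libraries left out. Under the other settings, the scalings included, calls of mock root against mock leaf were 65 to 89 lower and 21 to 30 higher. With a root group of 1 library, that library is assumed to vary like the others. Of 38 named members tested in leaf, 30 kept direction and call in every alternative, and the direction of 0 was reversed. Deviations of same-numbered leaf libraries had correlations of 0.0956, 0.00567 and 0.00188, beside -0.141 to 0.128 for leaf libraries of different numbers. With 2 libraries per root group, same-numbered (0.1) and crossed (-0.1) correlations must be equal in size, so the root values cannot decide. The numbers were not taken as pairs, which this check does not settle. With the replicate block 126 members were called higher in leaf. The gene list counts under these settings were added after seeing the data.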
